A study of Mus musculus with 10 samples.

Results

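The 140 genes described here were chosen from 21437 by their FPKM (fragments scaled to exon length and to the size of the library) in control libraries alone. Each was at 20 FPKM or more in both 4-cell control libraries and at 1 FPKM or less in both MII oocyte and both 2-cell control libraries. The rule took 158 genes, of which 18 were left out for the start of their names (ribosomal proteins, zinc finger proteins, proteasome and splicing subunits and other large families). Of all genes, 1516 were at 20 FPKM or more in both 4-cell control libraries, so the members made up a small part of what 4-cell embryos contained. Values in the control libraries were what chose the members, so they are given as a description, and the question asked here is what the same genes did in the Ago2 kd libraries, which the rule did not use.

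The RNA-seq data comprised 5 groups of 2 libraries each: MII oocytes, 2-cell and 4-cell control embryos, and the same embryo stages with Ago2 knocked down (Ago2 kd). All mice were labelled wild type and ICR, and the Methods give an age of 7 weeks. The description of embryo culture, however, names 7-week-old superovulated F1 females crossed with F1 males. Oocytes came from 7-week-old ICR females according to the Methods, so oocyte and embryo groups may differ in strain. Ago2 is the Argonaute protein that cleaves mRNAs matched by small RNAs. Per the Methods, it was depleted in zygotes by injecting a mixture of siRNA and antibodies against AGO2. A figure legend of the study instead names siRNA or antibodies, so the injection of the sequenced Ago2 kd embryos is not settled. The Methods name scrambled siRNA as the negative control of injections without saying which injection the sequenced control embryos received, and the number of embryos in a library is not given in the sources used here. Ago2 itself was not analysed.

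In the mouse, the oocyte is transcriptionally silent at MII, and the early embryo lives on the mRNAs it inherits. Transcription from the embryo's own genome begins weakly in the zygote and becomes strong in the 2-cell embryo, while many maternal mRNAs are removed. Genes for nucleolar proteins, ribosome assembly, protein folding and basic metabolism are among those switched on early, before compaction and the first lineage decisions.

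One library stood apart from the rest, and it bears on nearly every result. Of the 2845 genes above 10 FPKM in 4-cell Ago2 kd replicate 2, replicate 1 had 416 below 0.1 FPKM, or 14.6%. In the other 9 libraries this share lay between 1.61% and 5.81%. The counts of calls are therefore given with and without it, overall and by role. Exact zeros in the table can be failed estimates, since Eef2, the elongation factor that every cell needs for translation, and Tomm20, an import receptor of the mitochondrial outer membrane, were listed at 0 in all oocyte and 2-cell libraries. For the same reason the values do not show that the members were first transcribed at the 4-cell stage, and "listed at 0" is all that is said of such values. Low values above 0 can fail in the same way. Gapdh, which the study stained by RNA-FISH in 2-cell embryos, was at 0.17 FPKM or less in all 10 libraries, with 0.015 and 0.0048 FPKM in 4-cell control embryos. In addition, 193 genes had exactly the same value above 0 in both 2-cell Ago2 kd libraries, against 0 or 1 gene in each other group. None of them was a member, and leaving them out of the fit left the number of calls among the members at 52, 26 and 0 in the comparisons below. The stage labels were checked against marker lists. The 9 oocyte markers summed to 13663 and 15890 FPKM in MII oocytes and to between 7.12 and 41.3 FPKM in the 4-cell libraries, where Zp3, a protein of the egg coat, was at 23.5 FPKM in Ago2 kd replicate 1 and listed at 0 in the other 3. The markers of 4-cell to morula embryos did not follow the labels in the same way. In MII oocytes their sums were 140 and 182, in 2-cell control 111 and 121, and in 4-cell control embryos 214 and 177. In 4-cell embryos with Ago2 kd the sums were only 121 and 75.5. Of the 9 markers of 2-cell embryos, 7 were in the table, with sums of 639 and 843 in 2-cell control embryos. At the 4-cell stage their sums overlapped, at 72.2 and 147 for control and 180 and 82.6 for Ago2 kd. Zfp352, Tcstv1 and Tcstv3 were higher in each 4-cell Ago2 kd library than in either control, while Tdpoz4 overlapped. Tcstv3 had 13.7 and 13.5 FPKM there, against control values of 0.541 and 0.812 FPKM. A difference in stage between these groups was not tested. Of 12 markers of cumulus and granulosa cells, 2 were in the table (Foxl2 and Col1a1), both at or near 0, so that these cells were hardly checked.

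In the control series the members went from almost nothing to a visible part of the transcriptome. They summed to 8.72 and 10.1 FPKM in MII oocytes and to 18.0 and 14.0 FPKM in 2-cell control embryos. In 4-cell control embryos they summed to 11500 and 11668 FPKM, or 4.28% and 4.83% of each library's total. Between the 4-cell control libraries the median absolute difference was 0.45 on the log2(FPKM + 1) scale, and 124 of the 140 members lay within 1 log2 unit, which the rule favoured by asking for high values in both. Of the set, 70 members were listed at 0 in all 4 oocyte and 2-cell control libraries, and the other 70 had traces of up to 1 FPKM in at least 1 of them. Most members were at moderate levels, with medians of 50.7 and 53.3 FPKM and quartiles of 31.3 and 97.9 and of 32.3 and 96.8 FPKM in the 4-cell control libraries.

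The most abundant member was Prps1, which makes the phosphoribosyl donor for all nucleotide synthesis, at 1333 and 926 FPKM in 4-cell control embryos. Stip1, the co-chaperone that links Hsp70 to Hsp90, followed at 576 and 473 FPKM. Cct2, a subunit of the chaperonin that folds actin and tubulin, was at 260 and 283 FPKM. Prps1 was thus above all other members in both libraries, while the order below Stip1 was not resolved by 2 libraries. Nt5c3b, a nucleotidase, was at 291 and 183 FPKM, Mrto4, a ribosome assembly factor, at 151 and 290 FPKM, and the autophagy protein gene Wdr45b at 130 and 290 FPKM. Chchd2, Fcf1 and Rasl10a lay just inside the threshold of 20 FPKM, with lower values of 20.1, 20.6 and 20.7 FPKM, and Gm8242, Tbl3 and Tma16 just outside, with 19.9, 19.4 and 19.3 FPKM. At the other edge, Gm12263, Dtl and Nt5c3b lay just inside 1 FPKM, with highest oocyte or 2-cell values of 0.982, 0.973 and 0.952 FPKM, and Wdr12, Irf2bpl and Tbrg1 just outside, with 1.004, 1.15 and 1.16 FPKM.

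**Figure D1:**
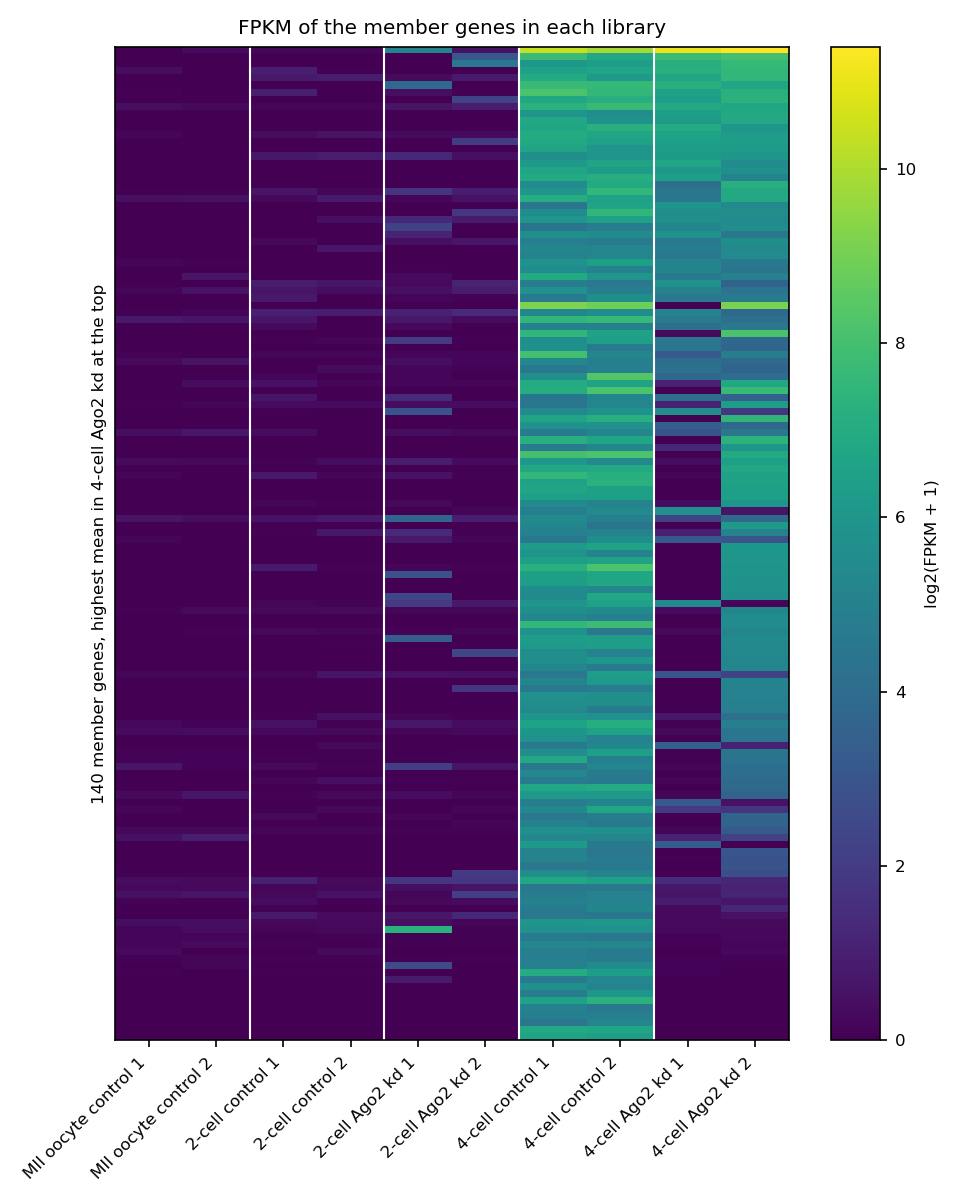
Colour gives log2(FPKM + 1) of the 140 member genes (rows, ordered by their mean in 4-cell Ago2 kd embryos) in each of the 10 libraries (columns, 2 per group). The oocyte and 2-cell columns are dark and the 4-cell control columns bright because the rule chose them so, while 77 members are at 1 FPKM or less in 4-cell Ago2 kd replicate 1 and 23 in replicate 2.

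In the annotation (GENCODE M21, GRCm38), 139 of 140 members were matched and 132 (95.0%) were protein-coding genes, compared with 68.4% of the matched genes that were at 20 FPKM or more in both 4-cell and both 2-cell control libraries. No names were dropped from that comparison set, and its 4-cell control medians were 108 and 95.3 FPKM, against 50.7 and 53.3 FPKM for the members. Gene families and levels thus also differ between the sets. The members had a median of 4 annotated transcripts against 3, and 15.8% had a single transcript against 38.6%. The span of another gene, on either strand and with introns included, overlapped 53.2% of them against 39.4%. Reads from exon stretches that such a pair shares may not be told apart. How many pairs share exon stretches was not counted. Promoter sequences were found for 111 members (140 promoters, 250 bases before each start, RefSeq, GRCm38.p6). The letters CCGGAAG, the core bound by ETS factors, stood on either strand in 25.7% of them, in 21.97% of the promoters of genes already present at the 2-cell stage and in 6.91% of all promoters in the table. GGGCGG, the core of SP and KLF sites, stood in 57.9%, 58.9% and 32.7%, and TATAAA in 5.00%, 6.48% and 12.4%. GC content had medians of 60.4%, 60.4% and 52.4%. These shares were thus close to those of the genes already present at the 2-cell stage.

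To show these letters where the outcome differed, the 100 bases before a start are given for some members whose window overlaps no annotated exon. They run 5′ to 3′ on the strand of the gene, from RefSeq on GRCm38.p6, with CCGGAAG or its reverse complement in capitals. Gm6871, Slc7a6, Arih2, Tbrg4 and Mark3 also had the letters in such a window and are not shown. Prps1 was present in both 4-cell Ago2 kd libraries, Cct2 in replicate 2 only, Exosc10 at 3.72 and 14.5 FPKM, and Akap8 and Adam17 were at or near 0 in both (Adam17, a shedding protease, at 0.0767 and 0.146 FPKM against 37.9 and 38.3 FPKM). Exosc10, a nuclear exosome nuclease, and Adam17 were chosen after their values had been seen. The Exosc10 stretch stands before an alternative start inside the gene, which begins at 148558429. The letters CCGGAAG were not found before its first start.
Prps1, chrX:140456503-140456602, plus strand: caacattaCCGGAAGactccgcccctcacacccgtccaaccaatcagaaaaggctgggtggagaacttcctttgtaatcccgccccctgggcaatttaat
Cct2, chr10:117063853-117063952, minus strand: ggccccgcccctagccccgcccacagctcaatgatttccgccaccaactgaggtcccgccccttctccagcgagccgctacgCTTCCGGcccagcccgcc
Exosc10, chr4:148558613-148558712, plus strand: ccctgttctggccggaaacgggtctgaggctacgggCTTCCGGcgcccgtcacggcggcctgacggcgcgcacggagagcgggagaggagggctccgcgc
Akap8, chr17:32321239-32321338, minus strand: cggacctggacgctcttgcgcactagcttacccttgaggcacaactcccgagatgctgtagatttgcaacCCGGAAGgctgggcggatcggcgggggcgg
Adam17, chr12:21373633-21373732, minus strand: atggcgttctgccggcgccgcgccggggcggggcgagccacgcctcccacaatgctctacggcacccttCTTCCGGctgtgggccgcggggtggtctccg

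The letters began between positions −92 and −18 from the start in these genes. They were found before genes present in 4-cell Ago2 kd embryos and before genes at or near 0 there.

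In 4-cell Ago2 kd embryos the members were present in part and unevenly. Fewer cells with a transcript and less of it per cell cannot be told apart in whole embryos. The members summed to 5044 and 9546 FPKM, or 2.18% and 2.93% of the totals, with medians of 0.283 and 28.9 FPKM. At 20 FPKM or more were 33 members in both libraries, 9 in replicate 1 only and 49 in replicate 2 only, and the other 49 were below 20 FPKM in both. At 1 FPKM or less were 19 members in both libraries, 58 in replicate 1 only and 4 in replicate 2 only. Thus most of the low values stood in replicate 1: of the 45 members listed at 0 in that library, 29 were at 20 FPKM or more in its partner. The median absolute difference between the Ago2 kd replicates was 1.62 log2 units, and 62 of 140 members lay within 1 log2 unit. These values cannot be set against those of the control replicates, whose closeness the rule built in. In the genes that were at 20 FPKM or more in both 4-cell and both 2-cell control libraries (515 genes), 440 were at 20 FPKM or more in both 4-cell Ago2 kd libraries and 33 were at 1 FPKM or less in replicate 1 only. Another set held 31 genes that were at 20 FPKM or more in oocytes and 4-cell control embryos and at 1 FPKM or less in 2-cell control embryos, so that their oocyte level set them apart from the members. Of these, 7 (22.6%) were at 20 FPKM or more in both 4-cell Ago2 kd libraries and 15 (48.4%) at 1 FPKM or less in replicate 1 only. Neither comparison set had names dropped, and the 515 genes had higher 4-cell control medians than the members, at 108 and 95.3 FPKM. Of the 70 members above the median control level 26, and of the 70 below it 7, were at 20 FPKM or more in both Ago2 kd libraries.

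**Figure D2:**
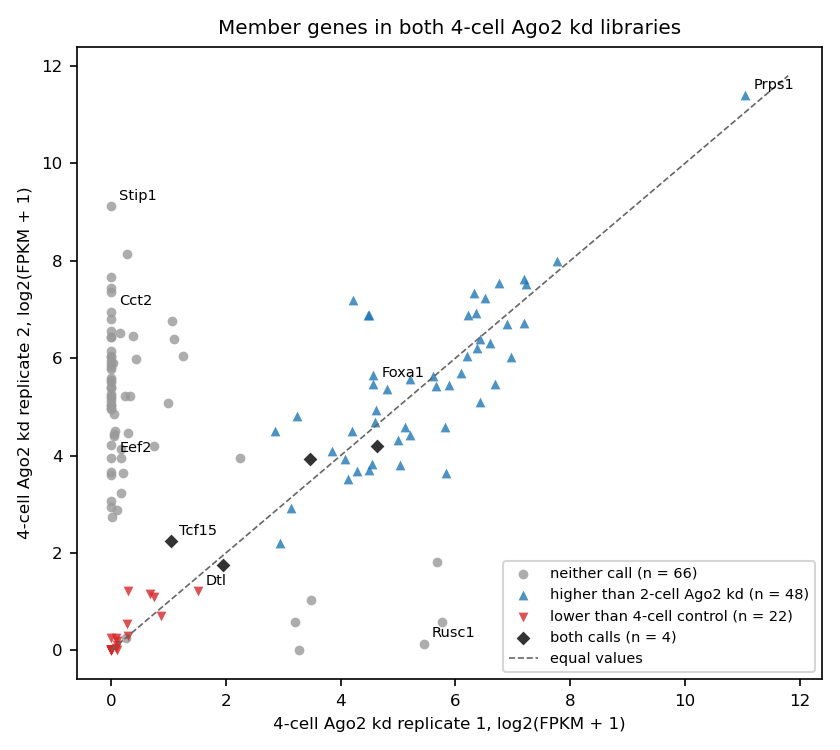
Each point is a member gene, placed by its log2(FPKM + 1) in 4-cell Ago2 kd replicate 1 (horizontal axis) and replicate 2 (vertical axis), with the dashed line at equal values and the colours giving the calls of the fit. Of the 52 members called higher than in 2-cell Ago2 kd embryos, 39 lie within 1 log2 unit of equal values and the farthest differs by 2.98, the column of grey points at the left holds members near 0 in replicate 1 only, and the 22 members called only as lower than control lie near the origin.

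No Ago2 kd library was used to choose the members, so the difference between 2-cell and 4-cell Ago2 kd embryos could be tested. The fit over all 10 libraries still takes part of its spread from control libraries whose values the rule set. All 140 members passed the filter of 1 FPKM or more in at least 2 libraries, which the 4-cell control libraries ensured. In the fit over all genes tested (limma on log2(FPKM + 1), Benjamini-Hochberg adjusted p below 0.05), 52 members (37.1%) were higher in 4-cell than in 2-cell Ago2 kd embryos, and 18.8% of the 8726 genes tested were. No member was lower, by adjusted or unadjusted p, and 16.5% of all genes were lower by adjusted p, but members near 0 in 2-cell Ago2 kd embryos had little room to be lower. By unadjusted p, the threshold of the study, 55 members (39.3%) were higher, against a background of 23.8%. Of the genes already present at the 2-cell stage, 200 of 515 (38.8%) were called higher and 67 lower, with a median difference of 0.97 log2 units. The members' median difference was 2.84 log2 units and that of all genes 0.18. These sizes depend on the pseudocount. Without the 59 members listed at 0 in both 2-cell Ago2 kd libraries the median over the other 81 was 2.80, and with a pseudocount of 0.1 the medians were 4.45 over all members and 4.07 over the 81. Both 4-cell Ago2 kd libraries lay above both 2-cell Ago2 kd libraries in 75 members (53.6%), and in 34.9% of the genes tested.

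These counts depended on single libraries. Without 4-cell Ago2 kd replicate 1, 105 members (75%) were called higher, beside 22.2% of all genes, and without replicate 2 there were 54 (38.6%), beside 15.6%. In each of these fits 1 library stands for the 4-cell Ago2 kd group and is assumed to vary like the other groups, control groups included. In a fit that held only the 4 Ago2 kd libraries, whose spread owes nothing to the control values, 34 members (24.3%) were called higher, beside 9.64% of all genes. Of the members named below by a fixed rule, Prps1, Isyna1, Rrp1, Gm2a, Chchd2, Map1lc3b, Rasl10a, Gpatch3, Tcf15 and Gm12263 lost their call in that fit.

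The comparison of 4-cell Ago2 kd with 4-cell control embryos shares its control side with the rule. High control values were thus chosen in advance, and the counts below are a description. So are the log2 differences and adjusted p-values of single members against 4-cell control embryos, here and in the sections by role. The spread behind them also came in part from oocyte and 2-cell control libraries that the rule held at 1 FPKM or less. Lower in Ago2 kd embryos were 26 members (18.6%) by adjusted p, with 2.77% of all genes, and 61 (43.6%) by unadjusted p, with 8.07% of all genes. Higher were 0 members by adjusted p, with 1.23% of all genes, and 1 by unadjusted p, with 7.37% of all genes. The median difference of the members was −2.86 log2 units, and over the 131 members not listed at 0 in both Ago2 kd libraries it was −2.71. Among the 515 genes already present at the 2-cell stage, 8 (1.55%) were lower by adjusted p and the median difference was 0.07. Among the 31 genes present in oocytes and low in 2-cell control embryos, 4 (12.9%) were lower and the median difference was −2.80. Both Ago2 kd libraries lay below both controls in 88 members (62.9%, against 16.9% of all genes) and above both in 6 (4.29%, against 20.1%), and the groups overlapped in 46. Without 4-cell Ago2 kd replicate 1, the median difference was −0.93 and 36 members were called lower, beside 2.91% of all genes. Without replicate 2 it was −4.68, with 87 called, beside 5.87%. In a fit with only the 4-cell libraries no member and no other gene passed the adjusted threshold, while 34 members were lower at an unadjusted p below 0.05, beside 5.55% of all genes.

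Sorted by both calls, 48 members were called only as higher than in 2-cell Ago2 kd embryos, 22 only as lower than in 4-cell control embryos, 4 as both and 66 as neither. Of the 66, 55 were at 1 FPKM or less in 4-cell Ago2 kd replicate 1 and above 1 FPKM in replicate 2. The letters CCGGAAG stood before 10 of the 39 members with a promoter that were called higher, before 8 of the 19 called lower, and before 33 of the 111 members in all. Without 4-cell Ago2 kd replicate 1 they stood before 24 of 82 called higher and 10 of 28 called lower. The sections that follow give the members by role. The roles were assigned from general knowledge of the genes after names and values had been seen, so the counts per role carry no test, and genes named in them beyond those the fixed rule gives were chosen in the same way.

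**Figure D3:**
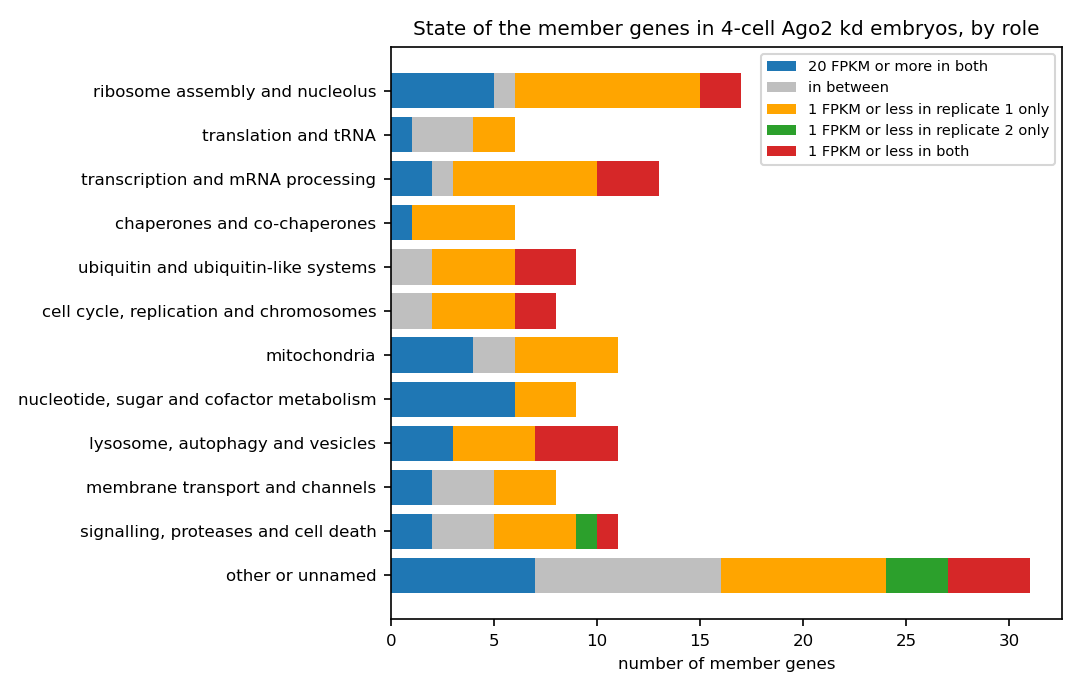
Bars count the member genes of each role (horizontal axis, number of genes) by their state in the 4-cell Ago2 kd libraries: at 20 FPKM or more in both, at 1 FPKM or less in 1 or both, or in between. Genes of nucleotide, sugar and cofactor metabolism have 6 of 9 at 20 FPKM or more in both libraries, and genes of ubiquitin systems and of the cell cycle have 0 of 9 and 0 of 8. In replicate 2 alone, 9 of 9, 3 of 9 and 4 of 8 are at that level. In the 4-cell control libraries the medians of these roles were 126 and 102, 39.2 and 39.6, and 39.9 and 36.6 FPKM, so their control levels differed.

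Ribosome assembly and the nucleolus formed the largest role, with 17 members, of which 5 were called higher in 4-cell than in 2-cell Ago2 kd embryos and 2 lower than in 4-cell control embryos. Surf2, a nucleolar protein, was listed at 0 in both 2-cell Ago2 kd libraries and was at 150 and 183 FPKM in 4-cell Ago2 kd embryos (adjusted p = 8.56e-05), above its control values of 90.2 and 107 FPKM. Nob1, the nuclease that completes the 18S rRNA, rose from 0.536 and 0.876 to 119 and 103 FPKM, a log2 difference of 6.04 ± 0.35 (SE, adjusted p = 9.34e-05), and its controls were at 153 and 210 FPKM. Both genes were thus present in each 4-cell Ago2 kd library. Ddx21, the RNA helicase that serves rRNA transcription, was listed at 0 in both 2-cell Ago2 kd libraries and stood at 85.4 and 33.4 FPKM in 4-cell Ago2 kd embryos (adjusted p = 3.09e-04), against 122.5 and 136 FPKM in control embryos. Rrp1, needed for the large subunit, rose in Ago2 kd embryos from 13.9 and 0 FPKM at the 2-cell stage to 145 and 105 FPKM at the 4-cell stage (adjusted p = 0.0123), a call that was lost without 4-cell Ago2 kd replicate 1 and in the fit with only the Ago2 kd libraries.

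The other helicases of the nucleolus split between the Ago2 kd libraries. Ddx47 was at 0.114 and 91.1 FPKM, Ddx54 at 0.0398 and 20.8 FPKM, and Ddx56 at 0.0379 and 20.1 FPKM, and their control values ran from 29.7 to 184 FPKM. Mrto4 showed the same split, at 0.0183 and 58.4 FPKM. None of these 4 passed either adjusted test. A pair of genes was near 0 in both Ago2 kd libraries. Pes1, of the complex that matures the large subunit, was at 0 and 0.197 FPKM against 28.7 and 24.4 in control embryos (log2 difference −4.65 ± 0.28, SE, adjusted p = 3.26e-04), and Dis3, the catalytic subunit of the RNA exosome, was listed at 0 in both against 51.7 and 34.5 FPKM (adjusted p = 2.20e-04).

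For translation and tRNA, 4 of 6 members were called higher than in 2-cell Ago2 kd embryos and 1 lower than in control embryos. Abce1, which recycles ribosomes after termination, was listed at 0 in 2-cell Ago2 kd embryos and was at 73.9 and 118 FPKM in 4-cell Ago2 kd embryos (adjusted p = 1.59e-04), overlapping its control values of 112 and 55.6 FPKM. Eef2 itself was at 0 and 14.5 FPKM in 4-cell Ago2 kd embryos and at 115 and 127 FPKM in control embryos, below both controls but not past the adjusted threshold (adjusted p = 0.0657). Lrrc59, an endoplasmic reticulum protein that binds ribosomes, was at 0 and 44.7 FPKM against 185 and 221 FPKM.

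Transcription and mRNA processing had 13 members, 3 called higher and 5 called lower. Foxa1, a pioneer transcription factor best known from endoderm, was listed at 0 in all oocyte and 2-cell libraries, was at 22.8 and 43.6 FPKM in 4-cell Ago2 kd embryos (adjusted p = 2.66e-04 against 2-cell Ago2 kd), and was at 33.3 and 36.0 FPKM in control embryos. Tcf15, a transcription factor studied in somites and in cells leaving pluripotency, was at 1.06 and 3.71 FPKM in 4-cell Ago2 kd embryos and at 37.5 and 35.8 FPKM in control embryos. It was one of the 4 members with both calls, as it was lower than control (log2 difference −3.59 ± 0.45, SE, adjusted p = 0.00669) and higher than in 2-cell Ago2 kd embryos, where it was listed at 0 (adjusted p = 0.0289). The second call was lost under 5 of the alternatives, among them the fits without 4-cell Ago2 kd replicate 2 and with only the Ago2 kd libraries. The other 3 members with both calls were Mocs3, Nosip and the unnamed gene Gm43442, annotated as a processed pseudogene.

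Ell2, a subunit of the elongation complex that frees paused polymerase, rose from 0 and 3.07 to 85.3 and 82.5 FPKM in Ago2 kd embryos (log2 difference 5.40 ± 0.64, SE, adjusted p = 0.00117), close to the 122 and 90.8 FPKM of control embryos. The general factors were split between the Ago2 kd libraries. Gtf2f2, of the initiation factor TFIIF, was at 0 and 174 FPKM in 4-cell Ago2 kd embryos against 100.96 and 144 FPKM in control embryos, and Gtf3c5, of the polymerase III factor TFIIIC, at 0.129 and 14.5 FPKM against 24.0 and 23.6. Of the splicing proteins, Cactin was listed at 0 in both 4-cell Ago2 kd libraries against 27.6 and 63.9 FPKM in control embryos (adjusted p = 6.76e-04), and Prpf4, of the U4/U6 particle, was at 0.0778 and 0.0726 FPKM against 28.3 and 26.01 FPKM (log2 difference −4.71 ± 0.25, SE, adjusted p = 2.20e-04).

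The chaperones showed the split between the Ago2 kd libraries most plainly, with 5 of 6 members at 1 FPKM or less in replicate 1 only. Stip1 was listed at 0 in replicate 1 and at 557 FPKM in replicate 2, between its control values. Cct2 was at 0 and 123.05 FPKM, and Cdc37, which brings kinases to Hsp90, at 0 and 41.3 FPKM against 82.6 and 80.1 FPKM in control embryos. Hspa4, an Hsp70-type exchange factor, was the exception at 125 and 64.3 FPKM, against 105 and 147 FPKM in control embryos and 0 in both 2-cell Ago2 kd libraries (adjusted p = 1.37e-04). None of the other 5 passed either adjusted test.

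Metabolic genes had the highest share at 20 FPKM or more in the Ago2 kd embryos among the roles. Genes of nucleotide, sugar and cofactor metabolism also had high 4-cell control medians, at 126 and 102 FPKM, against 50.7 and 53.3 FPKM over all members. Of 9 genes of nucleotide, sugar and cofactor metabolism, 6 were called higher than in 2-cell Ago2 kd embryos, 0 lower than in control embryos, and the same number was at 20 FPKM or more in both 4-cell Ago2 kd libraries. Prps1 was at 34.4 and 0.475 FPKM in 2-cell Ago2 kd embryos and reached 2118 and 2693 FPKM in 4-cell Ago2 kd embryos, above both controls, and its log2 difference of 8.37 ± 1.28 between the Ago2 kd groups was the largest among the members at a pseudocount of 1 (SE, adjusted p = 0.00295). With a pseudocount of 0.1 it was 9.07 and that of Surf2 10.70. Surf2 was listed at 0 in both 2-cell Ago2 kd libraries, so the size of its difference depends on the pseudocount. The call of Prps1 was lost in the fit with only the Ago2 kd libraries. Nt5c3b rose from 0.325 and 0.07997 to 90.1 and 149 FPKM (log2 difference 6.61 ± 0.49, SE, adjusted p = 2.01e-04). Umps, which makes UMP in the last steps of pyrimidine synthesis, was listed at 0 in 2-cell and was at 67.2 and 51.0 FPKM in 4-cell Ago2 kd embryos (adjusted p = 1.06e-04), below its controls of 106 and 78.7 FPKM. Isyna1, the enzyme that makes inositol from glucose phosphate, rose from 0 and 7.90 to 219 and 255 FPKM (log2 difference 6.31 ± 0.94, SE, adjusted p = 0.00273) and overlapped its controls of 219 and 111 FPKM, but its call was lost in the same fit.

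Of 11 genes of mitochondria, 5 were called higher and 1 lower. Slc25a20, the carnitine carrier of the inner membrane, rose from 1.52 and 0.364 to 73.0 and 64.8 FPKM (log2 difference 5.24 ± 0.41, SE, adjusted p = 2.37e-04), and both values lay above its controls of 49.0 and 59.7 FPKM. The import receptor gene Tomm70a rose from 0.267 and 0 to 23.5 and 29.7 FPKM (adjusted p = 6.74e-04), below its controls of 122 and 59.7 FPKM. Chchd2, which acts in the intermembrane space, went from 3.58 and 0 to 36.0 and 46.6 FPKM (log2 difference 4.29 ± 0.69, SE, adjusted p = 0.00353), above its controls of 20.1 and 26.5 FPKM, a call lost with only the Ago2 kd libraries. Tomm20 was at 0 and 45.8 FPKM. The lower call was Tbrg4, a regulator of mitochondrial mRNAs, at 0.677 and 1.13 FPKM against 22.6 and 23.6 FPKM.

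Of 8 cell cycle and chromosome members, 0 were at 20 FPKM or more in both 4-cell Ago2 kd libraries, 1 was called higher than in 2-cell Ago2 kd embryos and 3 were called lower than in control embryos. Dtl, which directs the ubiquitin ligase that licenses one round of replication per cycle, was at 1.84 and 1.32 FPKM in 4-cell Ago2 kd embryos against 110 and 90.8 FPKM in control embryos (log2 difference −5.30 ± 0.39, SE, adjusted p = 6.29e-04). Chaf1b, of the complex that deposits histones on new DNA, was at 0.830 and 0.622 FPKM against 31.0 and 31.9 FPKM (log2 difference −4.23 ± 0.29, SE, adjusted p = 4.44e-04). Both were low in each Ago2 kd library. The kinase genes Cdk4 and Cdk16 were split, at 0.262 and 36.5 FPKM and at 0.132 and 16.6 FPKM, against control values from 23.2 to 50.3 FPKM, and Haus2, of the complex that multiplies spindle microtubules, was at 0 and 37.3 FPKM against 48.8 and 31.7 FPKM.

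Of 9 genes of ubiquitin and ubiquitin-like systems, 2 were called higher than in 2-cell Ago2 kd embryos and 4 lower than in control embryos. Sae1, a subunit of the enzyme that activates SUMO, was listed at 0 in both 4-cell Ago2 kd libraries against 116 and 102 FPKM in control embryos (adjusted p = 2.20e-04). The ligase gene Rnf149 was at 0.0639 and 0.188 FPKM against 25.9 and 21.1 FPKM (log2 difference −4.44 ± 0.26, SE, adjusted p = 2.58e-04). Ufd1l and Klhl7, an adaptor of the segregase that extracts ubiquitylated proteins and a ligase adaptor, were at 0.305 and 86.5 FPKM and at 0.355 and 62.0 FPKM, both higher in replicate 2 than in either control.

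Genes of lysosomes, autophagy and vesicles went both ways, with 3 of 11 called higher and 4 called lower. Gm2a, the activator that presents a ganglioside to lysosomal hexosaminidase, was at 0 and 21.95 FPKM in 2-cell Ago2 kd embryos and at 146 and 195 FPKM in 4-cell Ago2 kd embryos (adjusted p = 0.0189), above its controls of 64.3 and 79.3 FPKM. That call was lost without either 4-cell Ago2 kd library and with only the Ago2 kd libraries. Map1lc3b, the LC3 protein of autophagosomes, rose from 2.29 and 0.815 to 21.5 and 117 FPKM (log2 difference 4.40 ± 0.88, SE, adjusted p = 0.00846), within the 59.6 to 186 FPKM of its controls only in replicate 2, and its call too was lost with only the Ago2 kd libraries. In contrast, Atp6ap1, an accessory subunit of the proton pump that acidifies lysosomes, was at 0.221 in both 4-cell Ago2 kd libraries against 61.2 and 66.1 FPKM (log2 difference −5.73 ± 0.30, SE, adjusted p = 2.20e-04), and Mreg, a vesicle transport protein, was listed at 0 in both against 97.7 and 81.0 FPKM (adjusted p = 2.20e-04). Wdr45b was at 0 and 201 FPKM, Arf2 at 0.178 and 36.4 FPKM, and Ehd1, which acts in endosomal recycling, at 0.123 and 8.42 FPKM.

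Membrane transport gave 4 of 8 called higher and 0 lower, and signalling, proteases and cell death gave 4 of 11 higher and 1 lower. Bcl2l14, a member of the Bcl2 family, was listed at 0 in 2-cell Ago2 kd embryos and was at 27.1 and 40.4 FPKM in 4-cell Ago2 kd embryos (adjusted p = 2.38e-04), around its controls of 35.9 and 35.4 FPKM. Rasl10a, a small GTPase, rose from 1.66 and 0 to 16.4 and 10.5 FPKM (log2 difference 3.12 ± 0.58, SE, adjusted p = 0.00651, lost with only the Ago2 kd libraries), below its controls of 20.7 and 36.2 FPKM. Kpna1, an importin, was at 0.987 and 32.8 FPKM against 31.6 and 33.6 FPKM.

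The 31 members without one of these roles included several unnamed genes, and 14 of them were called higher and 5 lower. Tmem159, a lipid droplet protein, was listed at 0 in 2-cell and was at 81.5 and 121 FPKM in 4-cell Ago2 kd embryos (adjusted p = 8.36e-05), above its controls of 61.3 and 47.7 FPKM. It was the 1 member higher than control by unadjusted p. Gm5096 rose from 0.232 and 0.753 to 108 and 184 FPKM, and Gm42418 from 0.136 and 0.0254 to 13.4 and 16.1 FPKM (adjusted p = 1.61e-04 and 0.00983). The latter is a locus that overlaps ribosomal RNA sequence, and its control values of 48.2 and 321 FPKM differed widely. Gm43442 was at 23.8 and 17.3 FPKM against 182 and 198 FPKM in control embryos (log2 difference −3.16 ± 0.40, SE, adjusted p = 0.00694), and Gm6871 was at 0.212 and 281 FPKM against 180 and 95.0 FPKM. Gpatch3, which rose from 3.12 and 0.0662 to 22.4 and 13.1 FPKM (adjusted p = 0.0117, lost with only the Ago2 kd libraries), was below both controls of 49.9 and 85.0 FPKM. At the low end, Akap8, a nuclear anchor for protein kinase A, was listed at 0 in both 4-cell Ago2 kd libraries against 91.7 and 160 FPKM (adjusted p = 2.20e-04), and AU018091 was at 0.0709 and 0 FPKM against 131 and 82.6 FPKM (adjusted p = 2.20e-04).

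Without 4-cell Ago2 kd replicate 1, more members were called higher than in 2-cell Ago2 kd embryos in each of the 11 roles. Of the genes of ribosome assembly and the nucleolus, 13 of 17 were then called higher than in 2-cell Ago2 kd embryos and 4 lower than in control embryos. For translation and tRNA the counts were 5 and 3 of 6, for transcription and mRNA processing 8 and 4 of 13, and for chaperones 5 and 1 of 6. Nucleotide, sugar and cofactor metabolism had 9 and 0 of 9, and mitochondria 10 and 1 of 11. Cell cycle genes had 5 and 3 of 8, ubiquitin systems 6 and 3 of 9, and lysosomes, autophagy and vesicles 6 and 5 of 11. Membrane transport had 8 and 1 of 8, signalling, proteases and cell death 7 and 2 of 11, and the members without a role 23 and 9 of 31.

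At the 2-cell stage the members were mostly low in Ago2 kd embryos too; in control embryos the rule held them at 1 FPKM or less. In the 2-cell Ago2 kd libraries they summed to 283 and 72.8 FPKM, and 108 of 140 were at 1 FPKM or less in both. Above 1 FPKM were 19 members in replicate 1 only, 11 in replicate 2 only and 2 in both. These last were Dtl, at 2.54 and 2.45 FPKM, and Gm12263, annotated as a processed pseudogene, at 1.04 and 1.64 FPKM. Of the sum in replicate 1, 153 FPKM came from the unplaced gene AC147560.1, which was at 0.0390 FPKM in replicate 2 and at 0.193 FPKM in both 4-cell Ago2 kd libraries, so that 1 library decided its value. No member was higher than in 2-cell control embryos by adjusted p (limma), and 0.332% of all genes were, while 1 member was higher by unadjusted p, against 2.96% of all genes. Both Ago2 kd libraries lay above both controls in 15 members (10.7%), against 14.4% of all genes.

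Since the rule chose high values in both 4-cell control libraries, lower values in any other library are partly built in. To give their size, the rule was applied to 1 control library per stage and the genes were read in libraries that had not chosen them. Of 316 genes chosen on replicate 1, 61.7% were at 20 FPKM or more in the 4-cell control library left out, 28.2% in 4-cell Ago2 kd replicate 1 and 55.1% in replicate 2. Of 305 genes chosen on replicate 2, the shares were 67.2%, 26.9% and 48.5%. Listed at 0 were 8.54% and 8.85% of them in the left-out control library, 31.0% and 32.1% in Ago2 kd replicate 1, and 11.1% and 11.1% in replicate 2. Thus replicate 2 of the Ago2 kd embryos lay closer to the left-out control library than replicate 1 did.

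**Figure D4:**
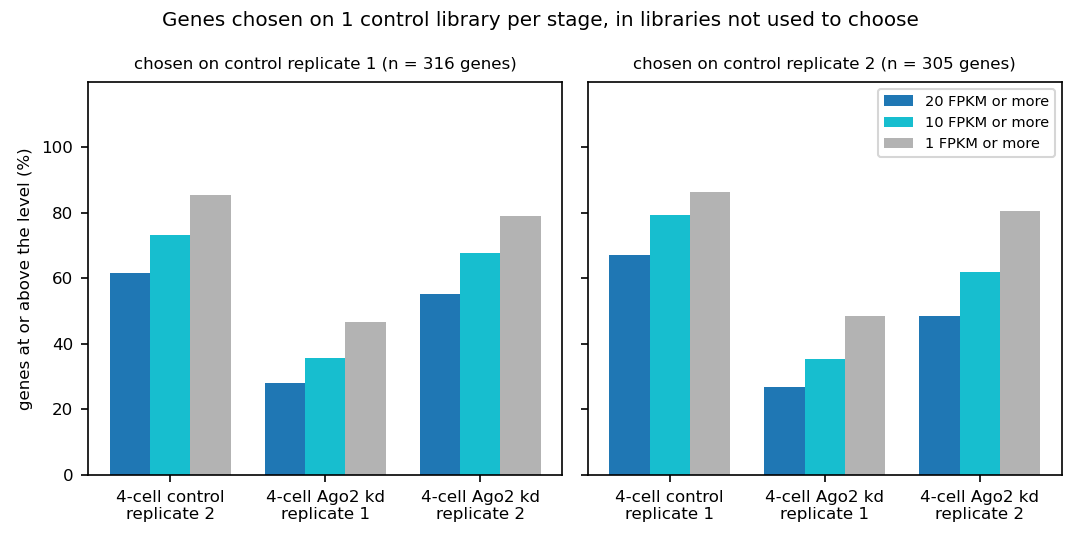
Bars give the percent of genes (vertical axis, from 0) at 20, 10 or 1 FPKM or more in each 4-cell library that was not used to choose them, for genes chosen on replicate 1 (left, 316 genes) or replicate 2 (right, 305 genes) of the control groups. At 1 FPKM or more the left-out control library holds 85.4% and 86.2%, Ago2 kd replicate 1 holds 46.5% and 48.5%, and Ago2 kd replicate 2 holds 79.1% and 80.7%.

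The same rule applied to the Ago2 kd embryos in place of the control embryos gave 57 genes. Of these, 21 were members, or 15.0% of the 140 members and 36.8% of the 57. Of the 57 genes, 57.9% were at 20 FPKM or more in both 4-cell control libraries, and 23.6% of the members were at that level in both 4-cell Ago2 kd libraries.

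The function lists were set up from name patterns, which caught some genes by name alone: Gpatch3 in mitochondria and metabolism, Gm2a in unnamed transcripts, and Cdc37 in the cell cycle. By these lists no member belonged to lineage and junction genes, mRNA decay and microRNA genes, or DNA replication and repair genes. The patterns also missed genes: Dtl and Dis3 fell in no list, Chaf1b in chromatin and Exosc10 in splicing and RNA processing. An empty list therefore does not show that no member has that function. Of 9 members in mitochondria and metabolism, 6 were called higher than in 2-cell Ago2 kd embryos and 0 lower than in control embryos. Of 10 in translation, tRNA and ribosome assembly, 5 were higher and 1 lower. Splicing and RNA processing had 1 higher and 1 lower of 6, membrane traffic 2 and 1 of 6, and unnamed transcripts 8 and 3 of 14. Chromatin had 1 and 1 of 4, ubiquitin and proteolysis 0 and 2 of 4, and cell cycle genes 0 and 0 of 4. Both transcription factors and both signalling genes were higher, and 1 of the former was lower than control. The single gene of nuclear transport had neither call, and the 78 members in no list had 25 higher and 16 lower. Without 4-cell Ago2 kd replicate 1, mitochondria and metabolism had 9 higher and 0 lower, translation, tRNA and ribosome assembly 8 and 2, and the members in no list 55 and 22.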

How the data were processed

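The members and the gene lists were chosen with earlier results of these data known. Per the labels and the Methods, reads were aligned to GRCm38 (mm10) with HISAT2 2.1.0, and the authors deposited the FPKM that StringTie gave (21437 named genes, 10 libraries). How transcripts were merged into 1 gene row, and whether counting used strand, is not given in the sources used here. Depth and counting error are unknown, and precision was judged from 2 libraries per group. Nothing in the labels says that replicates were separate collections, so p-values measure the spread between these libraries, which may be technical.

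The deposited FPKM were not scaled again. They were tested as log2(FPKM + 1) with limma 3.58.1 in R 4.3.3 (1 mean per group, 10 libraries, trended empirical Bayes, two-sided), for the 8726 genes that reached 1 FPKM in 2 or more libraries, with Benjamini-Hochberg adjustment over all of them. Fold changes understate those of low genes. No fold is given for a single gene against a group listed at 0, except for Surf2 at a pseudocount of 0.1. An exact permutation test of 2 against 2 libraries cannot go below p = 0.333 and was not used. Scripts were tested on simulated data. There the fit called 87 of 200 genes (43.5%) that were given a rise of 3 log2 units between the Ago2 kd groups. A member without a call may therefore still have changed. Replicate numbers did not pair the libraries (correlations of deviations −0.09 to 0.09).

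Genes named were the 10 highest in 4-cell control embryos, the 8 largest called rises, the 8 highest among members at 1 FPKM or less in both 4-cell Ago2 kd libraries, members above 1 FPKM in both 2-cell Ago2 kd libraries, the 5 largest above both controls, up to 4 per list, and those at the thresholds. Alternatives were another pseudocount, no filter, 3 scalings, a replicate term, fits with only the groups compared, other thresholds and leaving out each library; 1 was added after seeing the data, without the genes identical in both 2-cell Ago2 kd libraries. Counts, small RNAs and other assays were not used here. Results of some genes that this rule gives are not reported here.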

Additional observations from a re-analysis of the deposited data

Results flagged for a closer look

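In 11 members both Ago2 kd libraries lay above both controls at the 2-cell stage and below both at the 4-cell stage. Among all genes tested, 14.4% lay above both controls at the 2-cell stage and 16.9% below both at the 4-cell stage. The share of all genes with both patterns was not counted, so the 11 cannot be set against a background. The difference between the stages was not tested, and the control values at both stages chose the members, so the low 2-cell and high 4-cell controls were fixed in advance. On the log2(FPKM + 1) scale, Ago2 kd minus control at the 4-cell stage was −5.30 for Dtl, −3.67 for Tbrg4, −3.44 for Rusc1, −2.75 for Cdk16 and −2.13 for Znrf1. It was −2.06 for Exosc10, −1.12 for Spsb4, −0.95 for Gm12263, −0.69 for Mfsd7c and −0.69 for Nob1. At the 2-cell stage the differences of the 11 members lay between 0.02 and 1.63, and none passed the adjusted threshold.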

How the results depend on the processing

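The members called higher in 4-cell than in 2-cell Ago2 kd embryos numbered 52, and 48 to 105 when each library was left out, with 105 without 4-cell Ago2 kd replicate 1 and 34 when the fit held only both groups. The members called lower in 4-cell Ago2 kd than control embryos numbered 26, 25 to 87 when each library was left out, 61 by unadjusted p and 0 when the fit held only both groups. At the 2-cell stage 0 members were called higher by adjusted p, 1 by unadjusted p, and 0 to 3 when each library was left out. The median log2 difference at the 4-cell stage was −2.86, and −4.68 to −0.93 when each library was left out. A minimum of 10 FPKM gave 220 members and one of 40 FPKM gave 72, and 59 members, not 33, were at 1 FPKM or more in both 4-cell Ago2 kd libraries. With the replicate number as a block, 51 and 26 members were called. Replicate numbers share only a label. Single genes were followed only if called and named here by the fixed rule, which gave 26 rises and 12 falls. The block changed none of these calls, and none of these differences changed sign under any alternative tried. With only the groups compared, 10 of the 26 rises and 12 of the 12 falls lost their call. Fewer libraries enter the estimate of the spread there. Scaling each library to the same sum or median moved the median of all genes between the Ago2 kd groups from 0.18 to 0. Without the identical 2-cell genes the counts were 52, 26 and 0. Depth is unknown, so values near 0 cannot be told from missed transcripts.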
